A study of Mus musculus with 25 samples.

Results

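The genes followed here are 8 markers used to describe how mature or how dedifferentiated a beta cell is, namely Ucn3, Npy, Prlr, Gjd2, Ero1lb, Papss2, Aldh1a3 and Tmem215. They were taken by name, from markers proposed with earlier results of these data known, as the RNA-seq entries with these symbols and as the open chromatin peaks whose nearest annotated gene was a member. This gave 8 of 24439 genes and 44 of 65053 peaks. Prlr had 13 peaks, Npy 8, Papss2 6, Ucn3 5, Ero1lb 4, Gjd2 4, Tmem215 3 and Aldh1a3 1.

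Mature beta cells store and release insulin in response to glucose, and they acquire this ability after birth while they gain some transcripts and silence others. Ucn3, Gjd2, Ero1lb and Prlr belong to functions of the working beta cell, whereas Npy and Aldh1a3 are known for their presence in immature or failing beta cells. A gene that is switched off in a mature beta cell although other tissues use it is often called disallowed.

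The study compared alpha TC1 clone 6 (αTC1), a clonal mouse line with alpha cell properties, with beta-TC-6 (βTC6), a mouse insulinoma line. Both descend from tumours of transgenic mice in which SV40 T antigen was driven by an islet hormone promoter, the glucagon promoter for αTC1 and the insulin promoter for βTC6. No treatment was applied, and the lines grew in different media, so that effects of line and medium cannot be told apart. RNA-seq covered 3 libraries of each line, and ATAC-seq, in which a transposase tags open chromatin, covered 5 libraries of each line and 9 mixtures with 10% to 90% of βTC6 cells, 1 library each. Neither the labels nor the methods say whether replicates were separate cultures, so that p-values measure only the spread between these libraries.

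RNA-seq libraries held 21954031 to 26033482 expected counts, and ATAC-seq libraries of the pure lines held 4397851 to 10374903 reads in peaks. RNA levels are given as FPKM (fragments scaled to transcript length and to library size), and open chromatin as normalized reads, that is, reads in a peak scaled to a common library size. All log2 fold changes (log2 FC) are βTC6 over αTC1. All 8 beta cell markers tested as a check, Ins1, Ins2, Pdx1, Mafa, Nkx6-1, Slc2a2, Iapp and G6pc2, were called higher in βTC6, and 5 of 6 alpha cell markers were called higher in αTC1, the exception being Ttr. βTC6 also carried RNA of other islet hormones, with Sst at 256 ± 61.9 FPKM (SD, n = 3) against 0 in αTC1 and Gcg at 229 ± 50.4 FPKM against 12929 ± 1282, and Ppy ranged from 3.70 to 50.8 FPKM among the βTC6 libraries. Markers of acinar, duct, mesenchymal, endothelial and white blood cells were under 1 FPKM in every library. The part of the hormone-expressing cells in the results was not tested. Among the RNA-seq libraries of αTC1, replicates 1 and 2 were close (chi-square of 2.06 per degree of freedom over genes) and replicate 3 lay farther from both (27.8 and 29.3), while the pairs of βTC6 libraries were 17.3 to 38.4 apart. Among the ATAC-seq libraries replicates 1 to 3 of a line were closer to each other than to replicates 4 and 5.

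Of the 8 genes, 7 passed the filter of at least 1 FPKM in all 3 libraries of either line, and Gjd2, Papss2 and Tmem215 passed it through βTC6 alone. In edgeR's quasi-likelihood test, with a false discovery rate (FDR) under 5% and an absolute log2 FC over 2, Npy, Gjd2, Ero1lb, Papss2 and Tmem215 were called higher in βTC6, as were 10.2% of the 12195 genes tested. Prlr was called higher in αTC1, as were 4.08% of the genes tested. Aldh1a3 was not called, and Ucn3 was outside the test. At the FDR alone, 5 members were higher in βTC6 and 2 in αTC1, against 38.7% and 36.0% of the genes tested. The FPKM values of the lines did not overlap for any of these 7 genes, against 37.3% of tested genes that were higher in βTC6 without overlap and 40.4% that were higher in αTC1. Fewer cells with a transcript and less of it per cell cannot be told apart in these bulk libraries. The members named for immaturity did not share a direction, since Npy was higher in βTC6 and Aldh1a3 was lower in FPKM there. The calls of these 6 genes past both thresholds were made again when each library was left out in turn, and under each other setting tried.

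**Figure D1:**
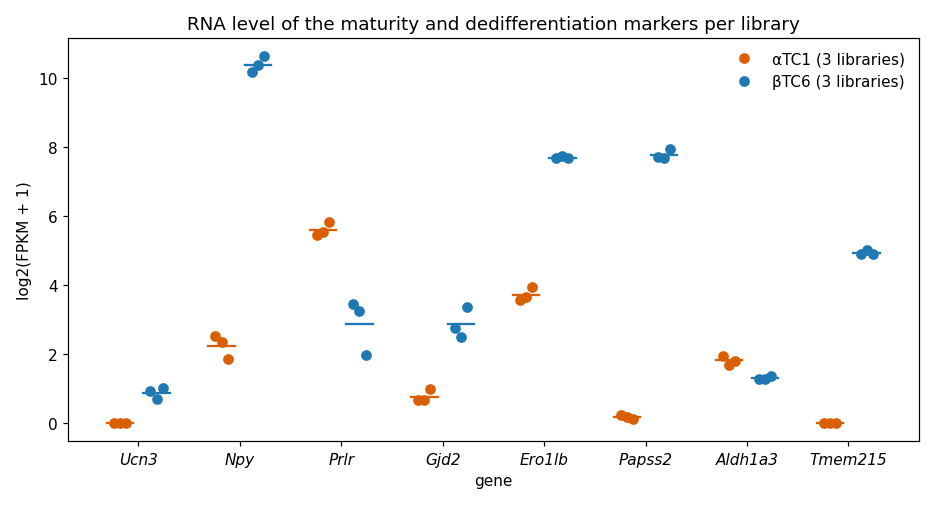
RNA level of each marker in every RNA-seq library, as log2(FPKM + 1) on the vertical axis. Points are libraries, bars are means of 3 libraries, and αTC1 is orange and βTC6 blue. Npy reaches the highest level of all, 1591 FPKM in a βTC6 library, while Ucn3 does not exceed 1 FPKM and Prlr and Aldh1a3 lie higher in αTC1.

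Among the secreted peptides, Ucn3 (ENSMUSG00000044988, mm9 chromosome 13, 3939934 to 3944595), which encodes urocortin 3, a peptide co-released with insulin that acts on delta cells, was barely detectable. Its levels in βTC6 were 0.87, 0.61 and 1 FPKM, from 33, 23 and 36 expected counts, and it had 0 counts in all 3 αTC1 libraries. With 3 counts per library as the floor, the level in βTC6 was at least 9.56-fold higher. Ucn3 was the lowest of the 8 genes in βTC6, below Aldh1a3 with no overlap of their libraries. Because only 1 βTC6 library reached 1 FPKM, the gene was not tested. With no filter on low values edgeR called it higher in βTC6 with an adjusted p of 1.69e-05. Acsbg1 and Tmem47 had the patterns nearest to it, at distances of 0.38 and 0.42.

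Npy (ENSMUSG00000029819, mm9 chromosome 6, 49772709 to 49779506), a peptide of neurons that beta cells make early in life, was the most abundant of the 8 in βTC6. It measured 1146, 1326 and 1591 FPKM in βTC6 and 4.69, 4.11 and 2.56 FPKM in αTC1. The lines did not overlap, and the log2 FC was 8.55 (SE 0.23, adjusted p = 7.54e-09 from edgeR). In βTC6 the mean level of Npy exceeded that of 99.9% of all genes. Of the genes tested, Rpl21 and Nnat had the pattern most like Npy over the 6 libraries, by Euclidean distance of 2.60 and 2.87 in log2(FPKM + 1). Rpl21 is a ribosomal protein gene with many near-identical copies, so that its level is uncertain.

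Among the receptor and channel genes, Prlr (ENSMUSG00000005268, mm9 chromosome 15, 10106993 to 10303504), the prolactin receptor through which pregnancy hormones drive growth of beta cells, was higher in αTC1. It measured 42.8, 45.2 and 55.4 FPKM in αTC1 against 9.84, 8.35 and 2.87 FPKM in βTC6. The libraries of the lines did not overlap, and the third βTC6 library lay well under the other two. The log2 FC was -2.62 (SE 0.34, adjusted p = 9.73e-05 from edgeR), and -2.27 without βTC6 replicate 3. In αTC1, Prlr was the highest of the 8 genes, ahead of Ero1lb. The genes most like it were Vegfc, with means of 41.6 FPKM in αTC1 and 8.85 in βTC6, and Arhgap18, with 32.7 and 6.43 FPKM. On the mm9 build Prlr shares 15218 bp with Agxt2 on the same strand, and Agxt2 did not exceed 0.11 FPKM in any library.

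Gjd2 (ENSMUSG00000068615, mm9 chromosome 2, 113835337 to 113839355) encodes the connexin whose gap junctions couple neighbouring beta cells electrically. It measured 5.64, 4.61 and 9.26 FPKM in βTC6 and 0.56, 0.57 and 0.96 FPKM in αTC1. Every βTC6 library was above every αTC1 library, and replicate 3 was the highest of both lines. The log2 FC was 3.26 (SE 0.32, adjusted p = 1.49e-05 from edgeR), and 2.92 without βTC6 replicate 3. In βTC6 the ranges of Gjd2 and Prlr overlapped. Ccdc149 and Ptprm had the most similar patterns, at distances of 0.56 and 0.57. The long non-coding gene A530058N18Rik, which overlaps Gjd2 by 18 bp on the other strand, ranged from 0.58 to 4.53 FPKM. The kit kept strand, but the counting ran with default settings that do not use it, so that reads in that stretch cannot be told apart.

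Among the enzymes, Ero1lb (ENSMUSG00000057069, mm9 chromosome 13, 12658150 to 12701793) encodes a pancreas-enriched oxidase of the endoplasmic reticulum that provides disulfide bonds for folding proinsulin. It measured 203, 212 and 202 FPKM in βTC6 and 10.8, 11.5 and 14.3 FPKM in αTC1. The levels within a line were close compared with the gap between lines, and the log2 FC was 4.13 (SE 0.13, adjusted p = 1.56e-08 from edgeR). The genes most like it were the predicted genes Gm4511, with means of 12.7 FPKM in αTC1 and 187 in βTC6, and Gm3662, with 9.70 and 254 FPKM.

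Papss2 (ENSMUSG00000024899, mm9 chromosome 19, 32694495 to 32741677) encodes an enzyme that makes activated sulfate for sulfotransferases. It measured 207, 205 and 245 FPKM in βTC6 against 0.16, 0.11 and 0.08 FPKM in αTC1, where these values rest on 13, 10 and 7 counts. The lines differed by a log2 FC of 10.94 (SE 0.19, adjusted p = 1.50e-09 from edgeR). In βTC6 its range overlapped that of Ero1lb, whereas in αTC1 it was among the lowest, above only Tmem215 and Ucn3. Ppp1r1a, at 0.02 FPKM in αTC1 and 191 in βTC6, and Sst had the most similar patterns.

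Aldh1a3 (ENSMUSG00000015134, mm9 chromosome 7, 73535778 to 73572403), a retinaldehyde dehydrogenase that makes retinoic acid and is known from dedifferentiated beta cells of diabetic mice, was low in both lines. It measured 2.83, 2.2 and 2.46 FPKM in αTC1 and 1.39, 1.40 and 1.54 FPKM in βTC6. The libraries did not overlap. The log2 FC was -0.67 (SE 0.19, adjusted p = 0.0117 from edgeR), past the FDR but within the fold-change threshold. The adjusted p was 0.058 without αTC1 replicate 1 and 0.305 with spike-in scaling, and at most 0.0395 in the other alternatives. In αTC1 its range overlapped that of Npy, the next gene above it in mean level, and not that of Gjd2 below it. Zfp341 and Dnase1l2 had the most similar patterns, at distances of 0.28 and 0.29.

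Tmem215 (ENSMUSG00000046593, mm9 chromosome 4, 40419213 to 40424201), which encodes a transmembrane protein, had no counts in any αTC1 library. It measured 28.6, 31.3 and 28.7 FPKM in βTC6, from 3376 to 3894 counts. The level in βTC6 was at least 1116-fold higher with 3 counts per library as the floor, and edgeR's adjusted p was 1.22e-08. Bves, at 0 FPKM in αTC1 and 29.8 in βTC6, and Igf2as, at 0.01 and 30.0 FPKM, had the most similar patterns, at distances of 0.16 and 0.28.

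In open chromatin, 10 of the 44 peaks (22.7%) were called more open in βTC6, against 12.9% of all 65053 peaks, and 1 (2.27%) was called more open in αTC1, against 5.38%. The test was limma on log2(normalized reads + 1), with the same thresholds as for RNA. The 10 peaks belonged to Papss2 (4), Tmem215 (2), Ucn3 (2), Npy (1) and Ero1lb (1), and the αTC1 peak to Prlr. None of the 4 Gjd2 peaks or the Aldh1a3 peak was called. At the FDR alone, βTC6 had the higher signal at 23 peaks (52.3%, against 39.9% of all peaks) and αTC1 at 14 (31.8%, against 38.1%), while 7 did not pass. The libraries of the lines did not overlap at 19 peaks with higher signal in βTC6 (43.2%, against 33.7%) and at 10 with higher signal in αTC1 (22.7%, against 30.2%). The median log2 FC of the 44 peaks was 0.40, against 0.00 over all peaks. Only 6 of the 44 peaks (13.6%) lay within 2 kb of a start site, against 22.4% of all peaks.

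**Figure D2:**
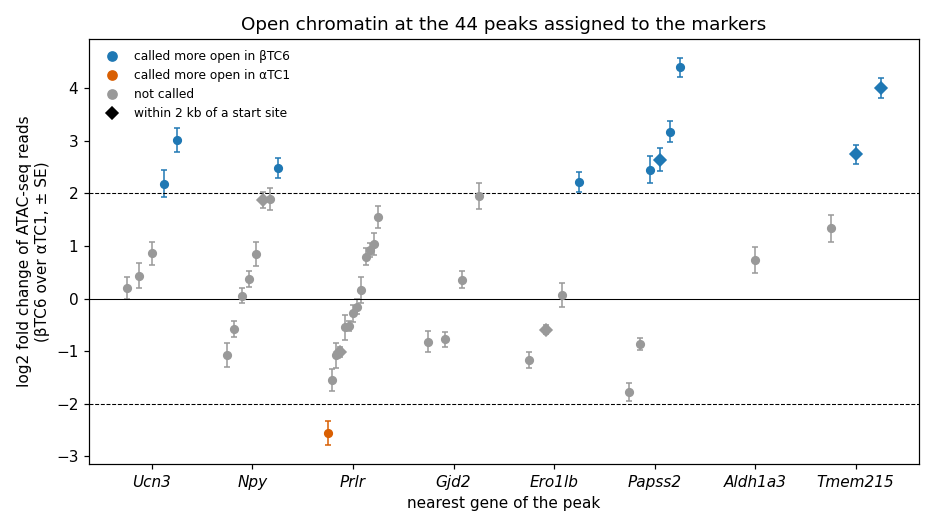
Log2 FC of ATAC-seq reads, βTC6 over αTC1, for each of the 44 peaks by nearest gene, with the standard error from limma (5 libraries of each line). Blue and orange points are called peaks, diamonds are peaks within 2 kb of a start site, and dashed lines mark the threshold of 2. Papss2 and Tmem215 hold the strongest βTC6 peaks, at 4.4 and 4.004, and Prlr holds the only αTC1 peak, at -2.56.

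Papss2 had the most called peaks, and all 4 lay in a stretch that begins at its upstream start site on chromosome 19. The peak over this start (mm9 19, 32669919 to 32670691) had 27.1, 28.3, 30.7, 25.3 and 33.5 normalized reads in βTC6 and 2.80, 6.74, 3.76, 5.60 and 1.73 in αTC1. The lines did not overlap, and the log2 FC was 2.64 (SE 0.22, adjusted p = 1.32e-09 from limma). The next peaks, 2.8 and 3.7 kb from the start, changed by 2.45 and 3.18. The peak 8.6 kb from it (32678069 to 32679621) had the largest change of all 44. It held 87.8, 60.9, 81.1, 81.6 and 104 normalized reads in βTC6 and 1.40, 3.93, 3.46, 2.87 and 3.61 in αTC1, a log2 FC of 4.4 (SE 0.18, adjusted p = 6.23e-14 from limma). GENCODE vM1 places the gene from 32694495 to 32741677 and calls these peaks intergenic, whereas a RefSeq start matches at 32670205. The other Papss2 peaks, 40.3 and 45.1 kb upstream, were more open in αTC1, with log2 FCs of -1.77 and -0.87.

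Shown first are the 250 bp upstream of that RefSeq start and the central 300 bp of the peak 8.6 kb from it, the peak with the largest change of the 44. Sequences are mm9, on the plus strand and in lower case, with capitals for matches on either strand to TAATTA (a homeodomain core), CAGCTG or CAGATG (E-boxes), TGCTGA (a Maf core), TTCNNNGAA (a Stat site) or TGACGTCA (a cyclic AMP response element). The 250 bp of the upstream start held none of these letters.
Papss2 upstream of the start, chr19:32669955-32670204: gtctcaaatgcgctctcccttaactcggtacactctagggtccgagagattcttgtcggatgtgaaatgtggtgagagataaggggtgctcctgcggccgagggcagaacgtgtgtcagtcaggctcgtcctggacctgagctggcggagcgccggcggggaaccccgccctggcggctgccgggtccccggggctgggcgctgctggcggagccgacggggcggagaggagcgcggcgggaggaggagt
Papss2 peak 8.6 kb from the start, chr19:32678696-32678995: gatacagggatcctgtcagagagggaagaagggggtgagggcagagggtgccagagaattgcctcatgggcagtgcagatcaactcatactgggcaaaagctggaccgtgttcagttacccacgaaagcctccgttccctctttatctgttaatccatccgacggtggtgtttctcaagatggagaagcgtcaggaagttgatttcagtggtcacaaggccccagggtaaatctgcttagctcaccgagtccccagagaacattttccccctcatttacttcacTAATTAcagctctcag

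Tmem215 changed nearly as much. The peak at its start on chromosome 4 (40419522 to 40420626), whose centre lies in an untranslated region of the gene, had 31.4, 38.1, 40.3, 38.1 and 36.0 normalized reads in βTC6 and 1.26, 2.67, 1.35, 0.96 and 0.87 in αTC1. This was a log2 FC of 4.004 (SE 0.19, adjusted p = 4.38e-13 from limma), with no overlap of the lines. A neighbouring peak over the coding exon (40420921 to 40421759) ranged from 16.6 to 21.3 normalized reads in βTC6 and from 1.35 to 2.67 in αTC1, a log2 FC of 2.74 (SE 0.19, adjusted p = 9.10e-11 from limma). The remaining peak, 23.4 kb downstream, changed by 1.34 and was not called.

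Npy, in contrast, fell just short at its promoter. The peak over its start on chromosome 6 (49772059 to 49772976) had 19.5, 18.5, 16.6, 21.4 and 20.6 normalized reads in βTC6 and 3.64, 4.49, 4.96, 4.64 and 5.06 in αTC1. The lines did not overlap, and the log2 FC of 1.87 (SE 0.15, adjusted p = 7.39e-10 from limma) lay under the fold-change threshold. Tests on the recovered whole reads, which add no such pseudocount, gave 2.08 with edgeR and 2.05 with DESeq2 and called it. The called Npy peak was intergenic, 128 kb upstream (49644389 to 49645523), with 17.9, 20.7, 18.1, 17.3 and 30.2 normalized reads in βTC6 and 1.961 to 4.09 in αTC1 (log2 FC 2.49, SE 0.20, adjusted p = 6.58e-10 from limma). The other 6 peaks of Npy ranged from -1.08 to 1.89. Over all 4291 peaks of chromosome 6 the median log2 FC was -0.79, and over the 52 other peaks within 1 Mb it was -0.98. The promoter is shown because it is open in a line whose Npy RNA was near the top of the transcriptome, and it held none of the motifs searched.
Npy upstream of the start, chr6:49772459-49772708: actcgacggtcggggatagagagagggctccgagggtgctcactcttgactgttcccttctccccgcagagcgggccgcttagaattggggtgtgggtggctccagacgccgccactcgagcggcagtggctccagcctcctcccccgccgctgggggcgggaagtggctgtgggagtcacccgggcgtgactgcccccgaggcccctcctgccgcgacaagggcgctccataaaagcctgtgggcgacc

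Ucn3 differed from Tmem215 in where its open chromatin lay. No peak was found within 250 bp of its start on chromosome 13, and the peak in its intron (3941618 to 3941972) ranged from 3.83 to 7.14 normalized reads in βTC6 and from 1.8 to 4.78 in αTC1, with an adjusted p of 0.101 in limma. The 2 called peaks were intergenic, 37.0 and 54 kb upstream. The farther one (3998219 to 3998884) had 13.9, 14.8, 23.1, 17.0 and 24.8 normalized reads in βTC6 and 2.1, 0.702, 1.954, 1.36 and 1.011 in αTC1 (log2 FC 3.02, SE 0.23, adjusted p = 3.22e-10 from limma). The nearer one (3981417 to 3981785) changed by 2.18 (SE 0.25, adjusted p = 1.64e-07 from limma), and by 1.76 after quantile normalization. These peaks carry the name Ucn3 only because its start is the nearest in the authors' annotation. The centre of the farther peak is shown as the most open Ucn3 region, and its capitals mark an E-box, a homeodomain core and, on the other strand, a Maf core.
Ucn3 peak 54 kb from the start, chr13:3998402-3998701: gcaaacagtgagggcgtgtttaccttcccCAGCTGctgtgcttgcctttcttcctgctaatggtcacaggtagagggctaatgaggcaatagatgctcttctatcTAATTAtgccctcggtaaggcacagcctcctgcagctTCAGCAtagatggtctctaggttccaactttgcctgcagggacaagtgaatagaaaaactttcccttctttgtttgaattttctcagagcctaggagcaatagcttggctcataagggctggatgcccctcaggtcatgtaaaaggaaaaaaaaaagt

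Prlr was the gene with the most peaks and the only one with a peak called for αTC1. The peak at an internal start site on chromosome 15 (10153083 to 10153878) was open in both lines. It had 54.3, 51.8, 51.7, 52.4 and 62.1 normalized reads in αTC1 and 23.9, 27.3, 25.1, 30.1 and 25.8 in βTC6. The log2 FC was -1.02 (SE 0.09, adjusted p = 5.93e-09 from limma), in the direction of the RNA but within the fold-change threshold. The called peak was intronic (10211375 to 10211588), with 9.10, 9.13, 10.7, 11.2 and 14.7 normalized reads in αTC1 and 1.14, 1.85, 0.68, 0.71 and 0.85 in βTC6 (log2 FC -2.56, SE 0.22, adjusted p = 2.36e-09 from limma). Of the 13 peaks, 6 passed the FDR in the direction of αTC1 and 4 in that of βTC6. Over all peaks the shares were 38.1% and 39.9%. The first and last annotated starts of Prlr, at 10106993 and 10223406, had no peak within 250 bp. The 250 bp before the internal start are shown because the only start-site peak of Prlr lies over them. They held both E-boxes, a Maf core and a Stat site, the element bound by the factors that prolactin signals through, and the intronic αTC1 window held none of the motifs. That intronic window runs past both ends of its peak, which is narrower than the window.
Prlr upstream of the internal start, chr15:10153411-10153660: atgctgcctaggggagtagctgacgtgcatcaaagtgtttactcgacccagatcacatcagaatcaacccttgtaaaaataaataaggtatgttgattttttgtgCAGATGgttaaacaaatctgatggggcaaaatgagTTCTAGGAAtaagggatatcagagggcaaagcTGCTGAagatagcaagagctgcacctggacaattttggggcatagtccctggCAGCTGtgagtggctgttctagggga
Prlr intronic peak, chr15:10211332-10211631: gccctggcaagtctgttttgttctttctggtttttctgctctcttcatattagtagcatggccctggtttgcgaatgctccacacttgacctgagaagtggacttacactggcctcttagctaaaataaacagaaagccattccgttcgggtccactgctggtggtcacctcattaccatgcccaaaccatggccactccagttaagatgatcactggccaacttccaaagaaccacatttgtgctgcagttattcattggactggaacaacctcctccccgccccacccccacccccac

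Ero1lb was the case in which RNA and start-site accessibility differed in direction. The peak over its start on chromosome 13 (12657699 to 12658746) had 67.6, 76.6, 78.2, 79.4 and 75.7 normalized reads in αTC1 and 52.3, 47.4, 53.2, 50.8 and 44.5 in βTC6. It was thus more open in αTC1 by a log2 FC of -0.60 (SE 0.08, adjusted p = 2.11e-06 from limma), although the RNA was higher in βTC6. With quantile normalization the difference was -0.15 with an adjusted p of 0.138. The called Ero1lb peak, 13.2 kb into the gene (12671226 to 12671533), had 5.11, 3.08, 5.14, 4.57 and 7.32 normalized reads in βTC6 and 0.70, 0.28, 0.15, 0.14 and 0.14 in αTC1, where libraries held 1 to 5 reads. Its log2 FC was 2.22 (SE 0.20, adjusted p = 3.62e-09 from limma), and fell within the threshold with replicates 1 to 3 of each line alone (1.98) and with quantile normalization (1.87). Its size moved with the pseudocount, at 2.83 with 0.5 and 0.91 with 5, and on recovered reads it was 4.09 with edgeR and 4.13 with DESeq2. A peak 6.1 kb upstream was more open in αTC1, at -1.17. The called window is shown as the Ero1lb region whose change had the sign of the RNA change, and it includes coding exon sequence.
Ero1lb peak 13.2 kb from the start, chr13:12671230-12671529: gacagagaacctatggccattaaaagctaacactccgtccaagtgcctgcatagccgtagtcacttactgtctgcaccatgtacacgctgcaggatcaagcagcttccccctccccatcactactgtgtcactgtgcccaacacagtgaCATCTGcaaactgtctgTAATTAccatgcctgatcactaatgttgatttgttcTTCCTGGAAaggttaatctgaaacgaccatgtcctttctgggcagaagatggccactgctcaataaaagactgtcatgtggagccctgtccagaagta

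At Gjd2 the start-site peak on chromosome 2 (113838621 to 113839777) was assigned in the authors' annotation to A530058N18Rik, which begins beside Gjd2 on the other strand, and so was not among the 44. It had 25.6, 22.2, 27.6, 22.3 and 15.4 normalized reads in βTC6 and 10.1, 11.5, 13.5, 10.8 and 7.80 in αTC1, with a log2 FC of 1.001 (SE 0.16, adjusted p = 9.58e-06 from limma). This peak was looked up after the values of the others had been seen. Of the peaks named for Gjd2, that 4.7 kb from the start (113843943 to 113844260) came nearest to a call, at 1.9496, and the others ranged from -0.82 to 0.36. Around Gjd2, 20 of 61 other peaks within 1 Mb were called more open in βTC6 and 3 in αTC1, against 12.9% and 5.38% of all peaks, with a median log2 FC of 0.92. The medians around the other members were 0.77 for Prlr, 0.62 for Papss2, 0.03 for Ucn3 and 0.01 for Tmem215. They were -0.43 for Ero1lb, -0.57 for Aldh1a3 and -0.98 for Npy. Of the 35 other peaks around Prlr, 4 were called for βTC6 and 0 for αTC1. Aldh1a3 had a single intergenic peak on chromosome 7, 75.3 kb upstream (73647549 to 73647846). Its values in αTC1, 2.24 to 5.34, overlapped those in βTC6, 3.76 to 10.4, and its log2 FC was 0.74 (SE 0.24, adjusted p = 0.01 from limma), opposite in sign to that of the RNA.

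**Figure D3:**
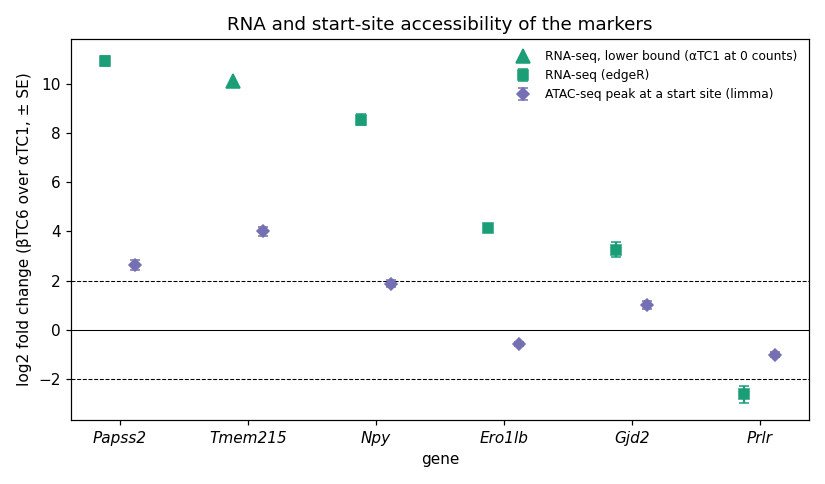
Log2 FC, βTC6 over αTC1, of RNA (green) and of the ATAC-seq peak over a start site (purple) for the 6 genes with such a peak, with standard errors. The RNA of Tmem215 is drawn as a lower bound of 10.12 because αTC1 had no counts. Ero1lb is the only gene of the 6 with signs that differ, 4.13 for RNA and -0.60 for the peak.

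Across the 44 central windows of 300 bp, TAATTA occurred in 7 (15.9%), CAGCTG in 15 (34.1%), CAGATG in 16 (36.4%), TGCTGA in 13 (29.5%) and TTCNNNGAA in 4 (9.09%), and TGACGTCA in none. The shares over all consensus peaks were 9.86%, 23.8%, 31.2%, 26.1%, 8.34% and 1.06% in the same order. In RefSeq promoters, as windows of 250 bp before the start, the shares were 4.84% for TAATTA, 13.05% for CAGCTG, 14.4% for CAGATG, 16.1% for TGCTGA, 7.04% for TTCNNNGAA and 1.56% for TGACGTCA. These shares are descriptions of letters, with no test.

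The mixtures asked whether the marker peaks followed the proportion of βTC6 cells in libraries that the comparison of the pure lines had not used. Of the 44 peaks, 17 (38.6%) rose with the percentage of βTC6 cells and 13 (29.5%) fell, by Pearson's r with an exact 2-sided permutation test adjusted over all peaks, against 30.1% and 21.8% of all peaks. Of the 10 peaks called more open in βTC6, 9 rose, the exception being the Ero1lb peak 13.2 kb from the start, and the called Prlr peak fell. Over all peaks, 95.8% of those called more open in βTC6 rose and 94.3% of those called more open in αTC1 fell. Of the 28 peaks that passed in both comparisons, 27 had the same direction, as did 99.9% of all peaks that passed in both. The exception was the Gjd2 peak at 113845533 to 113846200, which was slightly more open in βTC6 (log2 FC 0.36) but fell across the mixtures (r = -0.86). The mixtures held 5277983 to 7294832 reads in peaks.

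The Papss2 start-site peak rose at every step, with 5.08, 6.77, 9.38, 10.3, 13.7, 15.6, 19.8, 23.6 and 27.8 normalized reads from 10% to 90% of βTC6 cells. Pearson's r was 0.985 and Spearman's rho 1, both at 5.51e-06 in the exact permutation test, the smallest p it can give with 9 libraries, and the adjusted p was 0.000383. Without the 10% and 90% mixtures r was 0.987. The Papss2 peak 8.6 kb from the start went from 6.71 to 88.9 (r = 0.986, rho = 0.983, exact permutation p = 1.10e-05 and 4.96e-05, adjusted p = 0.000453, r = 0.973 without the outer mixtures). The Tmem215 start-site peak went from 2.64 to 37.0 (r = 0.938, rho = 0.967, exact permutation p = 2.76e-05 and 0.000165, adjusted p = 0.000628, r = 0.949 without the outer mixtures). The Tmem215 and Papss2 start-site peaks each lay under the straight line between the pure means in 8 of 9 mixtures. The Papss2 peak 8.6 kb from the start did so in 5, and the median over all 8409 peaks called more open in βTC6 was 6.

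The Npy start-site peak did not rise evenly. It held 8.74, 7.12, 6.36, 7.58, 10.2, 8.46 and 9.75 normalized reads from 10% to 70% of βTC6 cells, and 21.9 and 22.2 at 80% and 90% (r = 0.782, rho = 0.750, exact permutation p = 0.00608 and 0.0255, adjusted p = 0.0160, r = 0.751 without the outer mixtures). The Ucn3 peak 54 kb from the start rose from 4.47 to 16.4, with its highest value of 19.7 at 80% (r = 0.899, rho = 0.967, exact permutation p = 0.000231 and 0.000165, adjusted p = 0.00176, r = 0.869 without the outer mixtures). The Prlr start-site peak fell from 66.6 to 28.5 (r = -0.946, rho = -0.967, exact permutation p = 3.31e-05 and 0.000165, adjusted p = 0.000678, r = -0.960 without the outer mixtures). The Ero1lb start-site peak fell as well, from 63.8 to 52.0 (r = -0.894, rho = -0.883, exact permutation p = 0.00164 and 0.00308, adjusted p = 0.00622, r = -0.879 without the outer mixtures). Its intronic peak ranged from 0.52 to 3.77 without passing (r = 0.692, rho = 0.7, exact permutation p = 0.0318 and 0.0433, adjusted p = 0.0589), and r was 0.401 without the outer mixtures. The Aldh1a3 peak did not pass either (r = -0.453, exact permutation p = 0.218, adjusted p = 0.287). Without the outer mixtures its r was -0.858 (exact permutation p = 0.0179). Both have the sign opposite to its log2 FC of 0.74 between the pure lines.

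**Figure D4:**
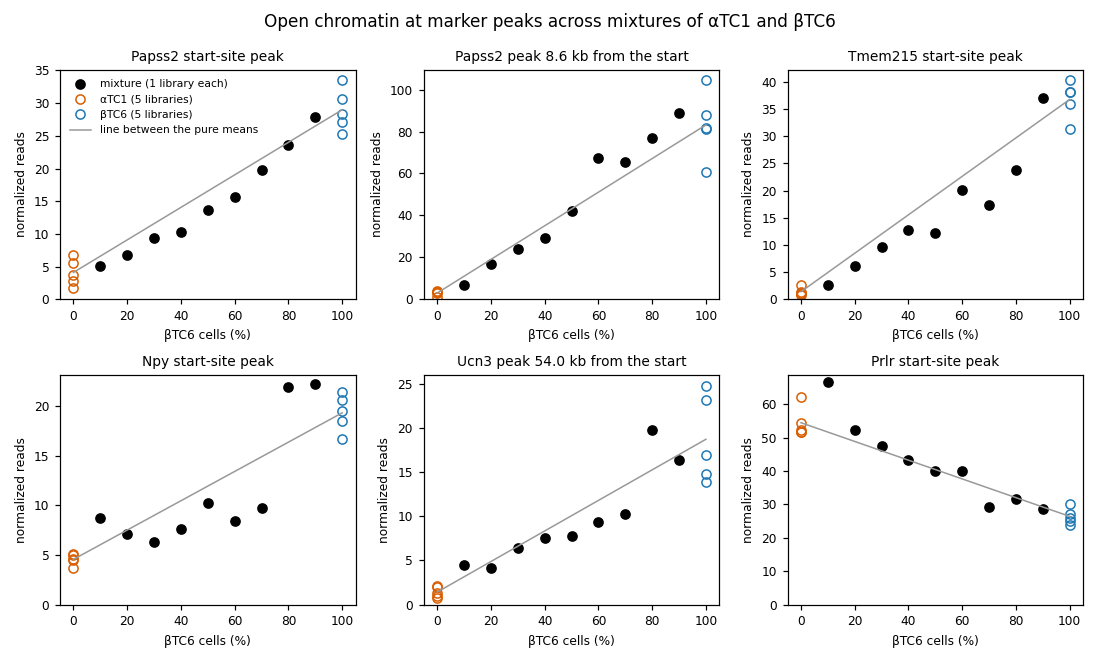
Normalized reads in 6 marker peaks against the percentage of βTC6 cells. Black points are mixtures (1 library each), open circles are the 5 pure libraries of each line at 0% and 100%, and the grey line joins the pure means. The Papss2 start-site peak rises at every step from 5.08 to 27.8, the Tmem215 peak goes from 2.64 to 37.0 with lower values at 50% and 70% than at the step before, Npy stays at 10.2 or less up to 70% and is at 21.9 at 80%, and Prlr falls from 66.6 to 28.5.

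The pathways around the members were described by lists, through the number of genes called and the median log2 FC, beside a median of 0.01 over all genes tested. Of 23 other genes linked to beta cell maturity, 15 were called higher in βTC6 and 0 in αTC1, with a median of 4.62, beside 10.2% and 4.08% of all genes tested. At the FDR alone, 18 of the 23 were higher in βTC6 and 2, Syt4 and Foxo1, in αTC1, against 38.7% and 36.0%. The 8 beta cell markers of the identity check are in this list and make up 8 of the 15 calls, and 12 of the 23 genes passed the filter through βTC6 alone. Those with the largest fitted changes were the hormone genes Ins1, at 0 FPKM in αTC1 and 2000 ± 395 in βTC6, Ins2, at 0.34 ± 0.26 and 30081 ± 6150, and Iapp, at 0.59 ± 0.36 and 10765 ± 2240, and the transcription factor gene Pdx1, at 0 and 111 ± 8.07 FPKM. Ins1, Pdx1 and Glp1r had no counts in αTC1, so that only lower bounds exist for them (at least 15644-fold, 3844-fold and 731-fold) and their order among these genes is not determined. The 8 not called included the transcription factor genes Neurod1 and Nkx2-2 and the channel gene Kcnj11.

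Genes linked to immaturity or dedifferentiation went mainly the other way. Of 20 listed and 14 tested, 9 were called higher in αTC1 and 3 in βTC6, with a median of -3.13, beside 4.08% and 10.2% of all genes tested. At the FDR alone, 11 were higher in αTC1 and 3 in βTC6, against 36.0% and 38.7%. Of the 14, 4 passed the filter through αTC1 alone and 3, the genes called higher in βTC6, through βTC6 alone, which fixed the direction their calls could take. Those higher in αTC1 included Gcg, the alpha cell hormone gene, at 12929 ± 1282 FPKM, Sox9, a progenitor factor, at 4.24 ± 0.19 FPKM against 0, and the disallowed metabolic genes Ldha, Slc16a1 and Hk1. Those higher in βTC6 were the gut hormone genes Cck, at 823 ± 66.7 FPKM against 0.07 ± 0.07, and Gast, at 17.96 ± 8.31 against 0.23 ± 0.14, and the growth gene Myc, at 7.70 ± 3.83 against 1.007 ± 0.57.

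Around the secreted peptides, the receptor Crhr1 was the only gene of the corticotropin-releasing factor family that passed the filter. It passed through βTC6 alone, at 17.3 ± 1.16 FPKM against 0.04 ± 0.02, and was called higher there, whereas Crhr2, the receptor for urocortin 3, was at 0.67 ± 0.32 FPKM in βTC6 and 0.00 ± 0.01 in αTC1. The relatives Ucn, Ucn2 and Crh did not exceed 0.14 FPKM in any library. In the NPY family, the peptide-cleaving enzyme gene Dpp4, at 10.1 ± 3.33 FPKM in βTC6 and 0.00 ± 0.01 in αTC1, and Ppy, at 25.96 ± 23.7 and 0.09 ± 0.01, were called higher in βTC6 with Npy. The receptor gene Npy1r was called higher in αTC1, at 4.06 ± 0.41 FPKM against 0.04 ± 0.03 (log2 FC -6.44, SE 0.32, adjusted p = 2.49e-07 from edgeR). Dpp4 and Ppy passed the filter through βTC6 alone and Npy1r through αTC1 alone, which fixed the direction of these calls. Pyy stayed at or under 0.31 FPKM.

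Around the prolactin receptor, 10 of 13 tested genes were not called, against 10452 of all 12195 genes tested, and the median was 0.30. Those not called included the signalling genes Jak2, Stat5a, Stat5b, Cish and Socs2. In this list 2 genes were called higher in βTC6 and 1, Prlr itself, in αTC1, beside 10.2% and 4.08% of all genes tested. At the FDR alone, 5 of the 13 were higher in βTC6 and 4 in αTC1, against 38.7% and 36.0% of all genes tested. Ghr, the growth hormone receptor, was called higher in βTC6, at 31.4 ± 3.45 FPKM against 7.70 ± 1.25 (log2 FC 2.09, SE 0.14, adjusted p = 1.71e-06 from edgeR), the reverse of Prlr. Tph1, the serotonin enzyme that prolactin induces in beta cells of pregnancy, was at 2.35 ± 0.78 FPKM in βTC6 and 0.01 ± 0.02 in αTC1. It was called higher in βTC6 and passed the filter through βTC6 alone, which fixed the direction of its call. Of 20 connexin and pannexin genes, Gjd2 and Panx1 alone passed the filter, both through βTC6 alone, which fixed the direction a call could take. Panx1 measured 2.36 ± 0.42 FPKM in βTC6 and 0.51 ± 0.51 in αTC1.

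Around the enzymes, 2 of 14 tested genes of oxidative protein folding were called, both higher in βTC6, with a median of 0.95, beside 10.2% of all genes tested. At the FDR alone, 11 of the 14 were higher in βTC6 and 0 in αTC1, against 38.7% and 36.0% of all genes tested. The 2 genes called past both thresholds were Ero1lb and the disulfide isomerase gene Pdia5 (log2 FC 2.227, SE 0.18, adjusted p = 4.70e-06 from edgeR). The related oxidase gene Ero1l measured 14.7 ± 6.72 FPKM in αTC1 and 15.6 ± 1.54 in βTC6 (log2 FC 0.14, SE 0.26, adjusted p = 0.651 from edgeR). In sulfate activation and transfer, 3 of 12 tested genes were called, all higher in βTC6, beside 10.2% of all genes tested. At the FDR alone, 9 were higher in βTC6 and 1 in αTC1, against 38.7% and 36.0%. All 3 called genes passed the filter through βTC6 alone, so that their calls could take no other direction. Besides Papss2 these were Sult1d1, at 0 FPKM in αTC1 and 8.86 ± 6.92 in βTC6, and Sult2b1, at 0.08 ± 0.04 and 1.85 ± 0.47. Papss1, the sister enzyme of Papss2, measured 25.1 ± 2.24 FPKM in αTC1 and 42.4 ± 8.25 in βTC6 (log2 FC 0.82, SE 0.14, adjusted p = 0.000707 from edgeR) and was not called. In retinoid metabolism, none of 11 tested genes was called higher in βTC6 and 3 were called higher in αTC1, namely Rbp4, a retinol carrier, at 1397 ± 244 FPKM against 210 ± 41.5, the receptor gene Rarb, at 2.97 ± 0.44 against 0.41 ± 0.15, and Aldh1a7, at 1.24 ± 0.12 against 0. At the FDR alone, 4 of the 11 were higher in βTC6, among them the receptor gene Rara at a log2 FC of 1.88, and 7 in αTC1, against 38.7% and 36.0%. Rarb and Aldh1a7 passed the filter through αTC1 alone, so that their calls could take only that direction, and 4.08% of all genes tested were called higher in αTC1. Aldh1a1 was at 0.94 ± 0.31 FPKM in αTC1 and 0.03 ± 0.02 in βTC6, and Aldh1a2 did not exceed 0.26 FPKM.

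**Figure D5:**
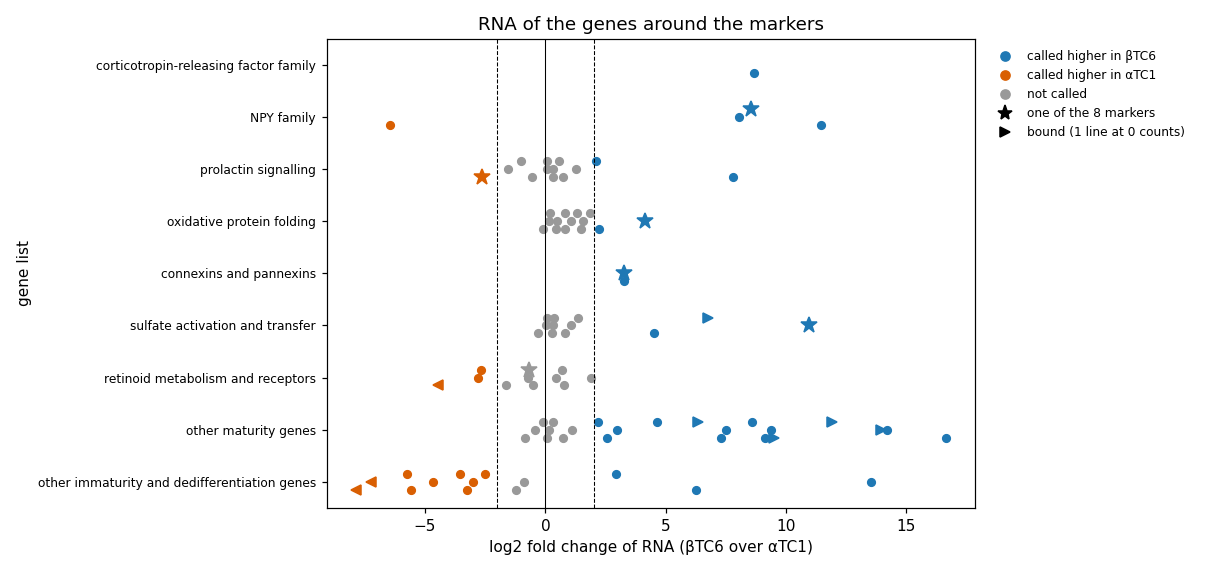
Log2 FC of RNA, βTC6 over αTC1, for the tested genes of each list, with 1 point a gene. Blue genes are called higher in βTC6, orange in αTC1 and grey not called, stars are members, triangles are bounds for genes at 0 counts in a line, and dashed lines mark the threshold of 2. In the maturity list 20 of 23 genes lie to the right of 0 (median 4.62), in the immaturity list 11 of 14 lie to the left (median -3.13), and in the folding list 13 of 14 lie to the right (median 0.95), most of them within the threshold.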

How the data were processed

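RNA-seq was measured in 3 libraries of each line, and ATAC-seq in 5 of each line and 9 mixtures. The authors trimmed RNA-seq reads with Trim Galore, aligned them to mm9 with Bowtie 2 and ran RSEM 1.2.12 with default settings, and deposited expected counts and FPKM. ATAC-seq reads were trimmed, aligned with BWA 0.7.9a and counted in consensus peaks, and the deposited signal values are TMM-normalized read counts. All of these values (100%) were whole multiples of the lowest in their library, within 0.01 reads, which gave back whole reads. No value is 0, and 1.36% to 4.37% of the values of a library are 1 read, which may stand for 0.

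Expected counts were rounded and tested with edgeR 4.0.16 (TMM, quasi-likelihood, spike-in entries left out), and peaks with limma 3.58.1 (trend) on log2(normalized reads + 1), in R 4.3.3, with Benjamini-Hochberg adjustment over all genes or peaks tested. The SE of a gene is its log2 FC over the square root of F. Alternatives covered DESeq2 1.42.0, spike-in scaling, a factor estimated from spike-ins, filters, pseudocounts, quantile normalization, thresholds, a replicate block and leaving out libraries. Mixture p-values were planned to be adjusted over the member peaks but were adjusted over all peaks. Correlations were computed in Python 3.11.15 with scipy 1.17.1. Annotation was GENCODE vM1 on mm9, and RefSeq starts (GRCm38.p6) were placed on mm9 by exact sequence match. In simulated tables with 200 changed features at a log2 change of 3, edgeR called 200 and limma 195, and neither called an unchanged one. The changed features were drawn from well-covered ones, the spread of the peaks was a set value, and replicates had no subgroups. The simulation therefore says nothing on peaks with a few reads or on changes near the threshold.

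The members and lists were chosen with earlier results of these data known. The text names all members, their peaks within 2 kb of a start site and the called peak of each member with the largest moderated t in each direction. It also names up to 4 called genes of each list by size of change, close family members, and the 2 genes nearest to a member in log2(FPKM + 1). Other peaks and genes are named beyond this rule and were chosen after their values were seen. Some genes that this rule would name are not reported here.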

Additional observations from a re-analysis of the deposited data

Results flagged for a closer look

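In 7 of the 88 groups of 5 ATAC-seq libraries (44 peaks in both lines), 1 library lay far from the other 4 by Dixon's test at 95%, where chance gives about 1 in 20. The Ero1lb peak 13.2 kb from the start had 0.70 normalized reads in αTC1 replicate 1 and at most 0.28 in the others. The Npy peak 128 kb upstream had 30.2 in βTC6 replicate 5 against 17.3 to 20.7, and the Npy peak 44.3 kb upstream had 2.57 in βTC6 replicate 4 against 0.47 to 1.03. In αTC1 replicate 5 the Prlr start-site peak had 62.1 against 51.7 to 54.3, and the intronic Prlr peak at 10196342 had 31.1 against 19.2 to 22.5. The Tmem215 start-site peak had 2.67 in αTC1 replicate 2 against 0.87 to 1.35. The Ucn3 peak 37.0 kb upstream had 5.26 in βTC6 replicate 5 against 10.4 to 11.7. The 4 called peaks among these were called again when the library in question was left out.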

How the results depend on the processing

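The RNA calls of 5 members higher in βTC6 and 1 in αTC1 were made in every alternative and with each library left out (5 to 5 and 1 to 1), and without the filter on low values Ucn3 was called as well, which gave 6 and 1. Of the peaks, 10 to 11 were called more open in βTC6 and 1 to 1 in αTC1 when each library was left out. With a pseudocount of 5, 3 and 0 peaks were called (2.56% and 1.26% of all peaks), and with an absolute log2 FC over 1, 16 and 7 (29.8% and 19.2% of all peaks). Replicates 1 to 3 alone gave 10 and 1, and replicates 4 and 5 alone 10 and 2. Quantile normalization gave 8 and 1 (8.69% and 7.88% of all peaks, so that 52.5% of all calls were for βTC6 against 70.6%), and the tests on recovered reads gave 14 and 1 each (21.2% and 8.82% of all peaks with edgeR, 20.9% and 9.18% with DESeq2). Without the 10% and 90% mixtures, 11 peaks rose and 7 fell (14.0% and 8.37% of all peaks), where 7 libraries allow no p under 0.000397. No direction reversed in any alternative for the 7 tested members or for their called and start-site peaks among the 44. The Gjd2 start-site peak was not run under the alternatives. Replicate numbers did not pair the libraries, since deviations of same-numbered RNA-seq libraries correlated at -0.095, 0.079 and 0.022, and the replicate block gave the same counts, 5 and 1 for RNA and 10 and 1 for peaks. Pseudocount 5 shrinks the change of low peaks by construction. The cause of the other changes was not tested. Depth limits Ucn3, Tmem215 in αTC1 and peaks with a few reads.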
